A study of Mus musculus with 23 samples.

Results

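The question was which genes responded to chronic TNBS colitis differently in Fn14 knockout mice than in wild-type mice. For each gene the TNBS effect in the knockout (TNBS minus untreated) was set against the same effect in wild type, and their difference on the log2 scale is called the difference of TNBS effects. A positive value means that TNBS raised the gene more, or lowered it less, in the knockout, and a value of 1 means that the fold changes differ by a factor of 2. All 23 arrays of the series enter this contrast, and all 18194 genes with a probe set of their own were tested. Of these, 363 genes passed an adjusted p of 0.05 in limma and are referred to as called.

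The 23 colon samples came from BALB/c mice and form 4 groups by genotype and treatment. Wild-type mice were untreated (n = 5) or received TNBS (n = 6), and FN14 KO mice, which lack the receptor Fn14, were untreated (n = 5) or received TNBS (n = 7). TNBS is a hapten given rectally in a mixture of PBS and ethanol. Injections of a 0.2% solution went on for 6 weeks, with the volume raised from 1.0 to 2.0 ul per g body weight, and the harvest followed 3 days after the final one. Whether untreated mice received ethanol is not in the labels, so injection, solvent and hapten cannot be told apart. They give neither age nor sex, nor whether the genotypes were littermates, and do not call each sample a separate mouse, so that p-values cover the spread among these samples and no more.

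Fn14 is encoded by Tnfrsf12a and is the receptor for the TNF family cytokine TWEAK, which is released by infiltrating leukocytes. It is induced on epithelial and stromal cells in injured tissue and signals through TRAF adaptors and inhibitors of apoptosis to NF-kappaB. Repeated TNBS in BALB/c mice is known for colitis with type 2 cytokines, mast cells, eosinophils and matrix remodelling.

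Tnfrsf12a was measured first. Its log2 signal on the untreated wild-type arrays was 6.64, 5.86, 7.06, 6.53 and 7.16, and with TNBS it ranged from 6.77 to 8.25 with a median of 7.24. The untreated knockout arrays had 4.17, 4.10, 4.11, 4.17 and 4.03, and the TNBS-treated ones 3.84 to 4.17 with a median of 4.11. All 12 knockout arrays lay below all 11 wild-type arrays. The TNBS effects of the targeted gene itself differed by -0.75 ± 0.30 (SE), which did not pass (limma adjusted p = 0.2). The sources used here do not say whether this probe set lies within the deleted sequence.

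Arrays of a group correlated at 0.989 to 0.998 over all genes, and no arrays held identical values. The absorptive colonocyte list, 14 genes of the surface epithelium, had a mean log2 signal of 12.57 to 12.92 on every array, so the defining markers of the labelled tissue were present. Markers of other tissues were also present. The mean of 7 pancreas genes was 9.51 and 11.46 on TNBS-treated wild-type arrays 3 and 6 and 6.85 on untreated knockout array 5, against 4.32 to 4.75 on the other 20. The mean of 12 skeletal muscle genes was 3.31 to 5.0 in untreated wild type and 5.72 to 8.15 in the untreated knockout. Small-intestinal genes are described with the interferon genes. The part of these tissues in the results was not tested beyond the covariates given. In bulk tissue, fewer cells of a type and less RNA per cell cannot be told apart.

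Across all genes the called differences were mostly negative. Of the 18194 genes, 363 were called (2.00%), 113 positive (0.621%) and 250 negative (1.37%), while 2853 genes (15.7%) had an unadjusted p under 0.05. Among the called genes, 34 positive and 50 negative differences reached 1 on the log2 scale. Without untreated knockout array 4 the count was 213, without untreated wild-type array 1 it was 238, and without the 3 arrays with high pancreas genes, a choice made after seeing the data, it was 202. Centring each array on its median gave 135 positive and 192 negative calls, so the positive share rose from 31.1% to 41.3%, and quantile normalization gave 41.6%.

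Among the negative genes the median TNBS effect was 0.37 in wild type and -0.10 in the knockout. Among the positive genes it was -0.29 in wild type and 0.19 in the knockout, and over all genes it was 0.00 in both. These medians describe genes that were chosen for this difference and test nothing. For comparison, the same fit called 2998 genes for TNBS in wild type (16.5%), 10.2% of all genes as higher and 6.27% as lower. It called 1556 for TNBS in the knockout (8.55%), 4.08% as higher and 4.47% as lower. Between genotypes it called 879 without TNBS (4.83%), 2.92% as higher in the knockout and 1.91% as lower, and 1902 with TNBS (10.5%), 3.73% and 6.72%. These comparisons share their arrays with the difference of effects.

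A difference of effects can come from any of the 4 groups, so each called gene was sorted by the group mean that stood apart, which is the one whose removal left the other 3 closest together. Of the 250 negative genes, TNBS-treated wild type stood apart in 110 (44%) and untreated wild type in 70 (28%). The untreated knockout stood apart in 49 (19.6%) and the TNBS-treated knockout in 21 (8.4%). Of the 113 positive genes, the untreated knockout stood apart in 40 (35.4%), TNBS-treated wild type in 34 (30.1%), untreated wild type in 30 (26.5%) and the TNBS-treated knockout in 9 (7.96%). Over the 16534 genes above the lowest value of the series on any array, the shares were 24.4% for untreated wild type, 32.3% for TNBS-treated wild type, 23.9% for the untreated knockout and 19.5% for the TNBS-treated knockout. The sign of the difference fixes whether a group can stand apart as the highest or the lowest, so that direction is no result. The TNBS-treated knockout was the group least often apart in both directions and over all genes.

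**Figure D1:**
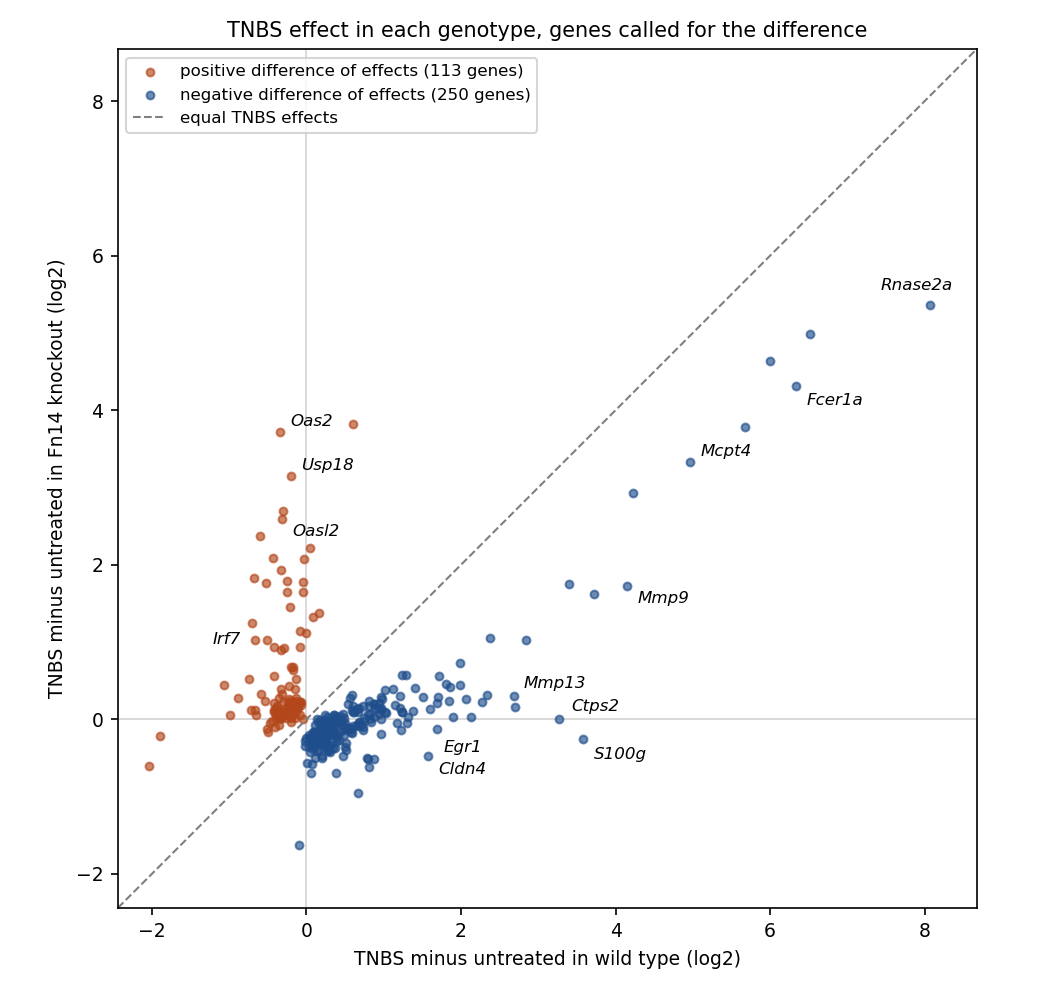
TNBS effect in wild type (horizontal axis, log2) against TNBS effect in the Fn14 knockout (vertical axis, log2) for the 363 called genes, 1 point per gene. The 113 positive genes lie above the dashed line of equal effects and the 250 negative genes below it, as the choice of genes requires, with Oas2 and Usp18 high above zero on the knockout axis and near zero on the wild-type axis.

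The positive genes with the largest differences were interferon-stimulated genes. Type I interferons are antiviral cytokines that signal through a receptor of Ifnar1 and Ifnar2 chains, and the factor IRF9 directs their signal to interferon-stimulated response elements in promoters. Such genes are also expressed in healthy intestine. A description of these promoters is given with the genes because their members moved together.

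Of 18 measured genes on the type I interferon list, 10 were called positive, 0 negative and 8 were not called, against 0.621% of all genes called positive. The median difference was 1.71 against 0.00 over all genes. All 18 estimates were above zero, from 0.48 to 4.06. The 10 called were Oas2, Usp18, Oas3, Ifit3, Oasl2, Rsad2, Ifit1, Oasl1, Irf7 and Irf9. Leaving out single arrays gave 9 to 14 called members, and leaving out the 3 arrays with high pancreas genes gave 4, which were Oas2, Usp18, Oasl2 and Ifit1.

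Oas2 makes the 2'-5' oligoadenylates that activate RNase L. Its log2 signal in untreated wild type was 7.15, 5.23, 9.01, 8.58 and 8.88, and with TNBS 6.72 to 8.05 with a median of 7.53. In the untreated knockout it was 2.75, 3.01, 3.95, 4.18 and 3.77, and with TNBS 6.49 to 7.71 with a median of 7.28. The 5 untreated knockout arrays lay below every other array, and the other 3 groups overlapped. The difference of TNBS effects was 4.06 ± 0.71 (SE; limma adjusted p = 0.0076), a 16.7-fold difference between the fold changes, made of 3.72 ± 0.50 in the knockout and -0.34 ± 0.51 in wild type. With values below log2 5 set to 5 it was 2.59 and no longer passed.

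Usp18, which removes the ubiquitin-like protein ISG15 and restrains the interferon receptor, also had its lowest levels in the untreated knockout. Its untreated knockout arrays stood at 6.79, 6.96, 6.67, 7.16 and 6.70 and its untreated wild-type arrays at 9.85, 8.78, 11.69, 10.95 and 11.62. With TNBS the knockout reached 9.21 to 10.62 with a median of 10.08, and wild type stood at 8.88 to 11.01 with a median of 10.67. The untreated knockout again overlapped with no group, and the difference was 3.35 ± 0.63 (limma adjusted p = 0.01).

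Oasl2, an oligoadenylate synthetase-like gene, had the smallest adjusted p of the list. The untreated knockout arrays had 7.08, 6.83, 7.52, 7.74 and 7.13 and the untreated wild-type arrays 9.87, 9.01, 11.17, 10.58 and 10.69. With TNBS the genotypes covered 9.39 to 10.09 (knockout, median 9.92) and 9.12 to 10.26 (wild type, median 10.03). The difference was 2.92 ± 0.41 (limma adjusted p = 0.0015), from 2.59 ± 0.28 in the knockout and -0.32 ± 0.29 in wild type.

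The transcription factors of the pathway moved less. Irf9, the DNA-binding part of the interferon-activated complex, differed by 1.11 ± 0.23 (limma adjusted p = 0.015), with untreated knockout arrays at 7.95 to 8.64 and all others at 8.86 or above. Irf7, which amplifies interferon production, differed by 1.54 ± 0.39 (adjusted p = 0.044). Its untreated knockout arrays at 8.78 to 9.71 overlapped with both wild-type groups. The Irf7 call was lost in 18 of the 23 fits that left out 1 array, with adjusted p up to 0.08. It held without untreated wild-type array 2, TNBS-treated wild-type arrays 1 and 2, untreated knockout array 4 or TNBS-treated knockout array 4.

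Effectors on and off the list also had their lowest group mean in the untreated knockout. Oas3 differed by 3.00, Ifit3 by 2.97, Rsad2, the antiviral enzyme viperin, by 2.29, and Ifit1, which binds viral RNA, by 2.26 (limma adjusted p = 0.014 to 0.022). Outside the list, Ifi44l differed by 3.21, the ubiquitin ligase gene Herc6 by 2.52, the helicase gene Ddx60 by 2.51, Trim30a by 2.16, Rtp4 by 2.11, the RIG-I-like receptor gene Dhx58 by 2.04 and Xaf1 by 1.91 (adjusted p = 0.0051 to 0.024). In each of these 11 genes the knockout level was lower without TNBS, by 2.00 to 3.75, and the genotypes with TNBS differed by 0.53 or less, which did not pass. Low signals bear on Ifi44l, which was 2.27 and not called with values below log2 5 set to 5, and Dhx58 was 0.90 and not called as the mean of its probe sets. Both calls also ended without the 3 arrays with high pancreas genes and with the replicate number as a block. Members that were not called include Ifit2 (2.54 ± 0.69, adjusted p = 0.062), Zbp1 (1.71 ± 0.46, 0.057), Stat2 (1.06 ± 0.39, 0.17), the RNA sensor Ifih1 (0.65 ± 0.20, 0.096), Mx1 (0.90 ± 0.49, 0.4) and Oas1a (0.48 ± 0.33, 0.56). The Oas and Ifit genes have close relatives, and their probe sets may also read these.

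The promoters of 4 called members are shown because the response element can be read in them. Each sequence is the 200 bases before the RefSeq start site on build GRCm38.p6, 5′ to 3′ on the gene's strand, with the motif in capitals: GAAA, any 2 bases and GAAA again, or on the other strand TTTC, any 2 bases and TTTC. Ifit1 (chr19:34640689-34640888, plus strand) has matches that begin 104 and 85 bases before the start, Ifit3 (chr19:34583329-34583528, plus strand) 156 and 122 bases before it, Oas3 (chr5:120777660-120777859, minus strand) 75 bases and Rsad2 (chr12:26456453-26456652, minus strand) 120 bases.
Ifit1: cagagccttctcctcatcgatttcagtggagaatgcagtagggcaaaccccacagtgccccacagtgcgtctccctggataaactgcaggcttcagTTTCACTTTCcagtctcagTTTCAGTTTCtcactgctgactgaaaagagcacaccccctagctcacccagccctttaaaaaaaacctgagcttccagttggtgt
Ifit3: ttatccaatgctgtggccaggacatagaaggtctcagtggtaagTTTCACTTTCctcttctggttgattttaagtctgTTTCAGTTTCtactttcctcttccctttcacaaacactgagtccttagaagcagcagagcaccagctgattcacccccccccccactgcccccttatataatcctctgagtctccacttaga
Oas3: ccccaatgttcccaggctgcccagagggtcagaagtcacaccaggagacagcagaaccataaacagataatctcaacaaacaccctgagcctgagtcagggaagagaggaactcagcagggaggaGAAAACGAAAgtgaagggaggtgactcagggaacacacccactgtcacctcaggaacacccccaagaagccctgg
Rsad2: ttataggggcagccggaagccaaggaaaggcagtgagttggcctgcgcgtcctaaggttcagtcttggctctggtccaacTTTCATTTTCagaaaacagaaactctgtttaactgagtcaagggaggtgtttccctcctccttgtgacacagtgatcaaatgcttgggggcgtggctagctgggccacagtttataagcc
The search covered 250 bases before to 50 after each start. At least 1 match was found for 4 of the 8 called list members that have a promoter in the table (50%) and 4 of 5 uncalled ones (80%). It was found for 13 of 89 positive genes (14.6%), 6 of 192 negative genes (3.12%), 524 of 14453 measured genes (3.63%) and 1131 of all 32851 promoters (3.44%). A match is a description of the letters and not a binding site, and many of the positive genes with a match are the interferon-stimulated genes already named.

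Genes upstream of this response were looked at after the values above were seen. None of 16 measured interferon, receptor and sensor genes was called, and their median difference was 0.00. Over all genes 2.00% were called, so a set this small can be without a call. Some of these genes did differ between the genotypes in the same fit. Tlr3 was lower in the untreated knockout (-0.43, limma adjusted p = 0.038). With TNBS such differences ran both ways, for example Ifnar2 lower in the knockout (-0.59, 0.0023) and Mavs higher (0.31, 0.0057). Ifnb1 was at the floor, 2.17, on every array, and Ifna4 on all but 1 TNBS-treated knockout array, where it was also 2.17 after rounding, so their levels were not readable here. Ifnar1 differed by -0.08 ± 0.10 and Ifnar2 by -0.50 ± 0.17 (adjusted p = 0.8 and 0.13), and Irf3 by 0.13 ± 0.09 (adjusted p = 0.53). The interferon gamma list had 0 of 18 members called and a median of 0.02: its chemokine Cxcl10 differed by 0.04 ± 0.41 and Cxcl9 by 0.58 ± 0.49, with TNBS effects near 2 in both genotypes for Cxcl10 (2.01 in wild type, 2.05 in the knockout). The GTPase genes of that list lay higher, with Gbp3 at 1.44 ± 0.42 (adjusted p = 0.082) and Igtp at 1.42 ± 0.54 (0.18). The immunoproteasome and MHC class II lists, 10 genes each, had 0 called and medians of 0.17 and -0.32.

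Spread within untreated wild type was wide. The mean of the interferon list was 8.93, 8.20, 10.40, 9.69 and 10.24 there and 7.11, 7.12, 7.52, 7.77 and 7.18 in the untreated knockout. The small-intestinal list of 9 genes had means of 6.27, 6.13, 6.14, 7.53 and 9.56 on the same wild-type arrays and 8.93, 9.53, 8.67, 8.77 and 6.49 on the same knockout arrays, and 5.85 to 6.35 with TNBS in either genotype. Knockout array 5, with a small-intestinal mean of 6.49, also had high pancreas genes (mean 6.85). The part of small-intestinal tissue in the interferon difference was not tested beyond the covariate that follows. With the small-intestinal mean as a covariate 11 members were called, and with the skeletal muscle mean 9.

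**Figure D2:**
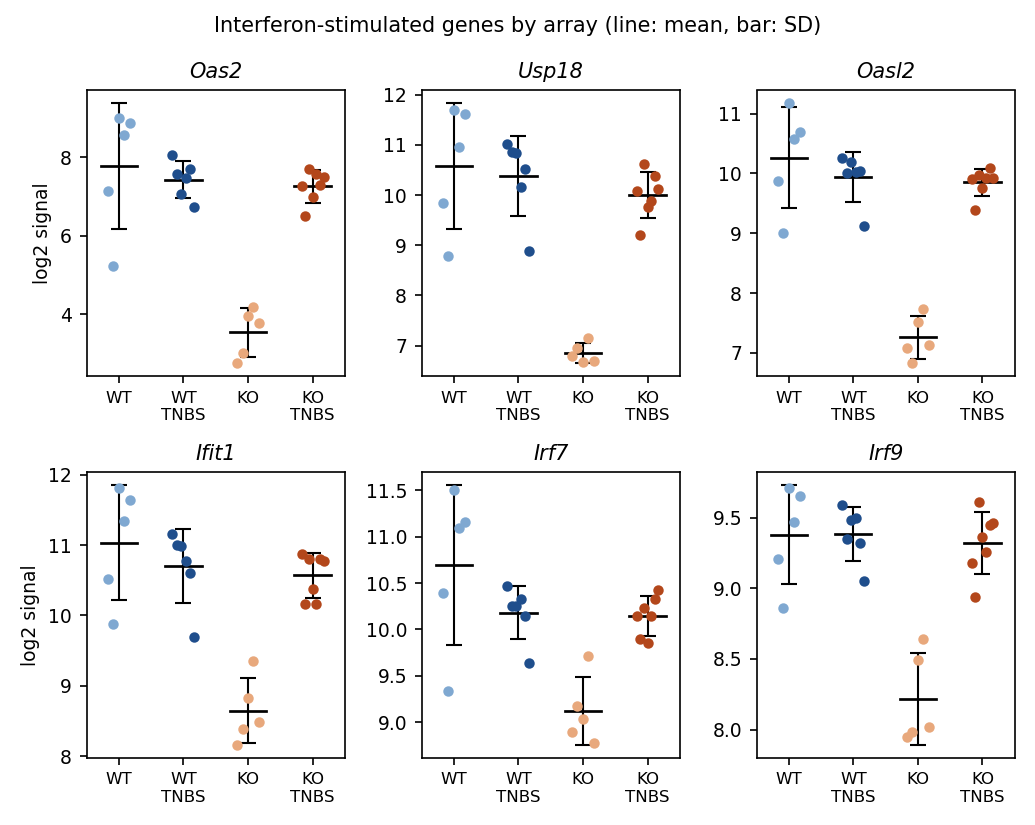
Log2 signal of 6 interferon-stimulated genes on each array (points), by group, with the group mean (line) and SD (bar). The untreated knockout is the lowest group in each panel, and the TNBS-treated knockout lies at the level of TNBS-treated wild type.

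A smaller set of positive genes belongs to the heat shock response, in which chaperones are induced by misfolded protein. This set was also chosen after values were seen. Of 17 measured members 3 were called positive: the co-chaperone genes Dnajb1 (0.99 ± 0.25, limma adjusted p = 0.043), Dnaja4 (1.05 ± 0.26, 0.041) and Chordc1 (0.92 ± 0.20, 0.018). All 17 estimates were above zero, with a median of 0.64, and 0.621% of all genes were called positive. Because the set was chosen from these values, its counts and median describe it and test nothing. Hspa1a, the inducible HSP70, had 8.87, 7.76, 8.91, 8.18 and 9.34 in untreated wild type and 7.71, 5.49, 6.10, 4.07 and 9.05 in the untreated knockout, and its difference did not pass (3.19 ± 0.90, adjusted p = 0.071). The untreated genotypes overlapped, and knockout array 4 was the lowest of all. The calls of Dnajb1 and Dnaja4 were lost in 17 and 14 of the 23 fits that left out 1 array, without knockout array 4 among them. The Chordc1 call held in all 23 but ended with the Gapdh signal, described with the mast cell genes, as a covariate. It also ended with the replicate number as a block.

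Other positive genes fell with TNBS in wild type and less in the knockout. Sgk1, the aldosterone-induced kinase that stabilises the epithelial sodium channel, stood at 13.47, 13.45, 13.48, 13.44 and 13.37 in untreated wild type and at 12.86 to 13.10 with TNBS (median 13.02). In the knockout it was 13.27, 13.25, 13.31, 13.24 and 13.26 without TNBS and 13.13 to 13.41 with it (median 13.24). The wild-type groups did not overlap, while the knockout groups did. The difference was small, 0.42 ± 0.06, and passed (limma adjusted p = 0.0031). It was the one call among 17 colonocyte ion transport genes, whose median was -0.07.

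Slc30a10, a manganese exporter, fell by 2.04 ± 0.26 in wild type and had an effect of -0.60 ± 0.25 in the knockout, which did not pass. Untreated arrays stood at 7.69, 7.86, 7.91, 7.83 and 7.40 in wild type and at 7.58, 7.35, 7.90, 7.71 and 7.10 in the knockout, overlapping, and TNBS arrays at 5.07 to 6.45 (median 5.58) and 6.39 to 7.63 (median 6.83), which overlapped by a narrow margin. The difference of 1.43 ± 0.36 (adjusted p = 0.043) was lost in 16 of the 23 fits without 1 array.

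The negative genes were led, by number, by genes that TNBS raised more in wild type. Mast cells are tissue granulocytes armed with IgE receptors and proteases, and mucosal ones expand under type 2 cytokines. Of 12 measured mast cell genes, 4 were called negative, 0 positive and 8 were not called, against 1.37% of all genes called negative. The median was -1.01, with 11 of 12 estimates below zero. The called ones were Fcer1a and Ms4a2, the alpha and beta chains of the high-affinity IgE receptor, Mcpt4, a connective-tissue chymase, and Cpa3, mast cell carboxypeptidase.

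Fcer1a was at the series' floor, 2.17, on 4 of 5 untreated arrays in each genotype, and at 2.17 and 2.35 on the remaining ones. With TNBS it ranged from 8.07 to 9.14 in wild type (median 8.49) and from 4.91 to 7.42 in the knockout (median 6.78). The TNBS-treated genotypes did not overlap. The difference of TNBS effects was -2.03 ± 0.45 (limma adjusted p = 0.023), from rises of 6.34 ± 0.32 and 4.31 ± 0.31 that may both be understated by the floor.

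Cpa3 had 2.60, 2.73, 2.44, 2.90 and 2.24 in untreated wild type and 2.24, 2.17, 2.17, 2.21 and 2.19 in the untreated knockout. With TNBS it reached 7.88 to 9.13 (median 8.63) in wild type and 6.16 to 7.46 (median 6.70) in the knockout, without overlap. The difference was -1.36 ± 0.30 (adjusted p = 0.022). Mcpt4 differed by -1.63 ± 0.35 (adjusted p = 0.018), with 6.79 to 7.82 on the wild-type and 4.80 to 6.28 on the knockout TNBS arrays. Ms4a2 differed by -1.65 ± 0.32 (adjusted p = 0.013), and its TNBS arrays, 4.78 to 6.31 and 3.37 to 4.89, overlapped at the edge.

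The most abundant mast cell proteases had differences of TNBS effects that did not pass. Mcpt1, the mucosal chymase, rose by 9.24 ± 0.31 in wild type and 9.33 ± 0.30 in the knockout, a difference of 0.09 (95% interval -0.81 to 0.99). Mcpt2 differed by -0.31 (-1.42 to 0.79). Untreated Mcpt1 was 3.80, 3.74, 2.60, 4.88 and 4.05 in wild type and 2.38, 2.45, 2.45, 4.02 and 2.45 in the knockout, near the lower end of the scale. With all values below log2 5 set to 5, Mcpt1 differed by -0.97 and was called (adjusted p = 0.00053, against 0.69 to 1 without single arrays), so its sign depends on these low signals. All its untreated values lie below 5, so -0.97 is the difference between the TNBS-treated genotypes, lower in the knockout. Cma1 (-1.51 ± 0.51) and Hdc (-1.21 ± 0.39), which makes histamine, did not pass (adjusted p = 0.13 and 0.11). Kit, the stem cell factor receptor that interstitial cells of Cajal share, differed by -0.33 ± 0.16 (0.34).

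As a sign of RNA integrity, the 3' Gapdh control probe set minus the 5' one gave 0.906 to 0.988 on the TNBS-treated knockout arrays and 0.965 to 1.17 on the TNBS-treated wild-type arrays. With this signal as a covariate, 1 mast cell gene was called. The count was also 1 without the 3 arrays with high pancreas genes and with the replicate number as a block. Each of these settings left Ms4a2 called and ended the calls of Fcer1a, Mcpt4 and Cpa3. Differences of Fcer1a, Mcpt4 and Cpa3 stayed between -1.21 and -2.15 over all alternatives other than single arrays. The call of Ms4a2 ended with values below log2 5 set to 5, where its difference was -0.64.

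Some eosinophil genes were called in the same direction. Of 7 measured, 3 were called negative and 4 were not, of which 2 stood at the lowest value on all arrays. The median difference of the list was 0, and 1.37% of all genes were called negative. The count of called genes was 1 without untreated knockout array 4, and also 1 without the 3 arrays with high pancreas genes. It was 1 as well with dim genes left out, with values below log2 5 set to 5 or with the replicate number as a block. Rnase2a, an eosinophil-associated ribonuclease, was 3.36, 3.18, 2.57, 4.0 and 3.20 in untreated wild type and 3.68, 3.36, 3.18, 4.70 and 4.82 in the untreated knockout. With TNBS it reached 10.45 to 12.20 (median 11.33) in wild type and 8.11 to 10.65 (median 9.62) in the knockout, with 1 knockout array inside the wild-type range. The difference was -2.72 ± 0.60 (limma adjusted p = 0.022, and 0.051 without untreated knockout array 4). The Rnase2a call also ended without the 3 arrays with high pancreas genes and with the replicate number as a block.

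Alox15, a lipoxygenase of eosinophils and alternatively activated macrophages, differed by -2.04 ± 0.32 (adjusted p = 0.0033). It was 2.32, 2.60, 2.24, 2.60 and 2.71 in untreated wild type, 3.45 to 5.31 with TNBS (median 5.01), 2.32, 2.32, 2.60, 2.32 and 2.32 in the untreated knockout and 2.40 to 2.79 (median 2.60) in the TNBS-treated knockout. Only TNBS-treated wild type stood apart, without overlap. Siglecf, a lectin of eosinophils, differed by -1.48 ± 0.35 (adjusted p = 0.033), and leaving out any of 9 single arrays ended its call, with adjusted p up to 0.068. These genes are faint, and Alox15 and Siglecf were not called with values below log2 5 set to 5.

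Of 19 measured type 2 cytokines and targets, 1 was called negative and 0 positive, against 1.37% of all genes called negative. The median was -0.53. Without TNBS-treated knockout array 6 the count was 3, without TNBS-treated wild-type array 2 or 6 or untreated knockout array 3 it was 2, and with values below log2 5 set to 5 it was 0. The called gene was Ccl24, eotaxin-2, which attracts eosinophils. It stood within 2.17 to 2.20 on all untreated arrays, at 3.36 to 4.27 (median 3.69) in TNBS-treated wild type and at 2.17 to 2.86 (median 2.18) in the TNBS-treated knockout, without overlap, and differed by -1.47 ± 0.21 (adjusted p = 0.0018). All of its values lie under log2 5. Chil3 and Arg1, products of alternatively activated macrophages, differed by -3.65 ± 1.32 and -2.30 ± 0.98 and did not pass (adjusted p = 0.16 and 0.25). Retnla, from the same cells, had -1.50 ± 0.40 (0.057), and the receptor chain gene Il4ra -0.58 ± 0.18 (0.099). Retnlb, a goblet cell product, rose by 1.79 and 1.78 in the genotypes and differed by -0.01 (95% interval -0.50 to 0.49). Outside the list, the lectin gene Cd209e (-1.86 ± 0.26, adjusted p = 0.0015), the checkpoint ligand gene Pdcd1lg2 (-1.79 ± 0.40, 0.023) and Tmem26 (-2.02 ± 0.39, 0.012) were called negative at low signal, and with values below log2 5 set to 5 they lay between -0.09 and -0.02 and were not called.

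**Figure D3:**
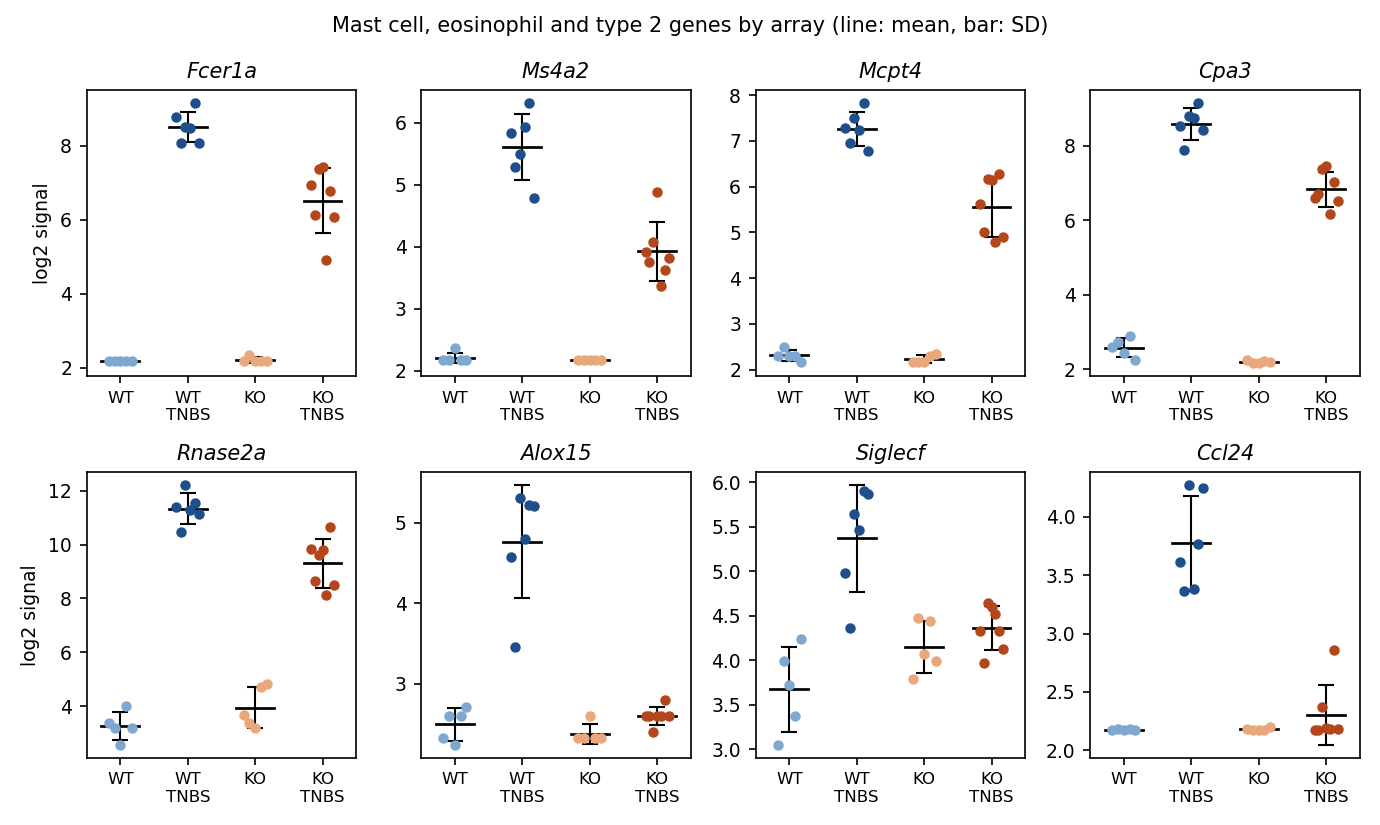
Log2 signal of 8 mast cell, eosinophil and type 2 genes on each array (points), by group, with the group mean (line) and SD (bar). TNBS-treated wild type is the highest group in each panel, and untreated arrays of the first 4 genes lie near the lowest value of the series, 2.17.

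Matrix genes were called in few cases. Of 17 metalloproteinases and inhibitors 2 were called negative, against 1.37% of all genes called negative. The median was -0.51, with 16 of 17 estimates below zero. Mmp13, an interstitial collagenase, stood at 2.81, 3.17, 2.91, 3.10 and 3.07 in untreated wild type and at 2.64, 3.04, 2.37, 3.10 and 3.03 in the untreated knockout. With TNBS it was 4.81 to 6.80 (median 5.48) in wild type and 2.65 to 4.39 (median 2.93) in the knockout. The TNBS-treated genotypes did not overlap, and the difference was -2.38 ± 0.46 (limma adjusted p = 0.012). With values below log2 5 set to 5 it was -0.72 and did not pass.

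Mmp9, a gelatinase of leukocytes, was 3.93, 3.72, 3.63, 3.54 and 3.72 in untreated wild type and 4.85, 4.52, 2.69, 4.14 and 3.72 in the untreated knockout. It reached 7.12 to 9.01 (median 7.85) with TNBS in wild type and 4.88 to 7.0 (median 5.84) in the knockout, without overlap. The difference was -2.43 ± 0.56 (adjusted p = 0.029), and a further probe set gave -2.69. Its call ended without untreated wild-type array 4 or without any one of untreated knockout arrays 1, 2 and 4 (adjusted p up to 0.061). It also ended with the skeletal muscle or small-intestinal mean as a covariate or with the replicate number as a block. The same held without the 3 arrays with high pancreas genes, of which 2 are TNBS-treated wild type. Mmp12, macrophage elastase, had -2.26 ± 0.83 and did not pass (adjusted p = 0.17). Of 22 collagen and matrix genes none was called, with a median of -0.16.

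Of 17 TGF-beta and profibrotic factors, Tgfb1 alone was called (-1.14 ± 0.23, adjusted p = 0.016). Its chosen probe set was faint, at 3.49 to 4.33 in TNBS-treated wild type and 2.34 to 3.01 on all other arrays, and with values below log2 5 set to 5 no difference remained. The chemokine gene Ccl7, which attracts monocytes, was the one call among 19 acute cytokines and chemokines (-1.81 ± 0.46, adjusted p = 0.045), and 19 of the 23 fits without 1 array ended it. The neutrophil, monocyte and macrophage, dendritic cell, T cell, B cell and plasma cell lists had no called member, with medians from -0.33 to 0.15.

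Egr1, an immediate early transcription factor induced by growth factors and injury, was bright and was called in every alternative tried. It stood at 10.35, 10.03, 10.01, 9.98 and 10.81 in untreated wild type and rose to 11.57 to 12.42 (median 11.84) with TNBS. In the knockout it was 10.60, 10.51, 10.49, 11.03 and 11.43 without TNBS and 10.21 to 11.19 (median 10.66) with it. The wild-type groups did not overlap and the knockout groups did. The difference was -1.83 ± 0.30 (limma adjusted p = 0.0041), the one call among 15 immediate early genes, whose median was -0.57. Ccn1 (-1.06 ± 0.33) and Fos (-0.57 ± 0.19) did not pass (adjusted p = 0.097 and 0.11).

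Epithelial and metabolic genes gave single calls. Cd55, which protects cells from complement, rose by 1.23 in wild type and 0.57 in the knockout (difference -0.66 ± 0.14, adjusted p = 0.016). Its further probe sets gave -0.59 and -0.23 and were not called. The Cd55 call ended with the mean of its probe sets and with the replicate number as a block. It also ended without the 3 arrays with high pancreas genes. Cyp51, a cholesterol synthesis enzyme, differed by -0.64 ± 0.14 (0.023, and 0.052 without untreated knockout array 4). Krt7 (-0.40 ± 0.10) and the goblet cell gene Fcgbp (-0.29 ± 0.08) lay at the threshold (adjusted p = 0.048 and 0.050), and 16 and 18 of the 23 fits without 1 array ended their calls. The 14 absorptive colonocyte genes had no call, a median of 0.00 and estimates within -0.16 and 0.11. The 14 Fn14 and NF-kappaB pathway genes also had none, with a median of -0.22, among them Birc3, an inhibitor of apoptosis (-0.46 ± 0.14, adjusted p = 0.095), and the adhesion molecule genes Vcam1 (-0.51 ± 0.27, 0.39) and Icam1 (-0.45 ± 0.25, 0.42).

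In all, 52 lists of 25 cell types and 27 pathways were described, and 37 had no called member. Over all genes 2.00% were called, 0.621% positive and 1.37% negative. At that share a list this short can be without a call, so its absence is no result about the members. Another 10 lists had exactly 1 call, which is no result about the list as a whole. The pancreas list had the lowest median, -2.76 over 7 genes with no call, and skeletal muscle had -0.94 over 12. Some lists share genes, such as Alox15, which is also the one call of the prostaglandin and leukotriene list.

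**Figure D4:**
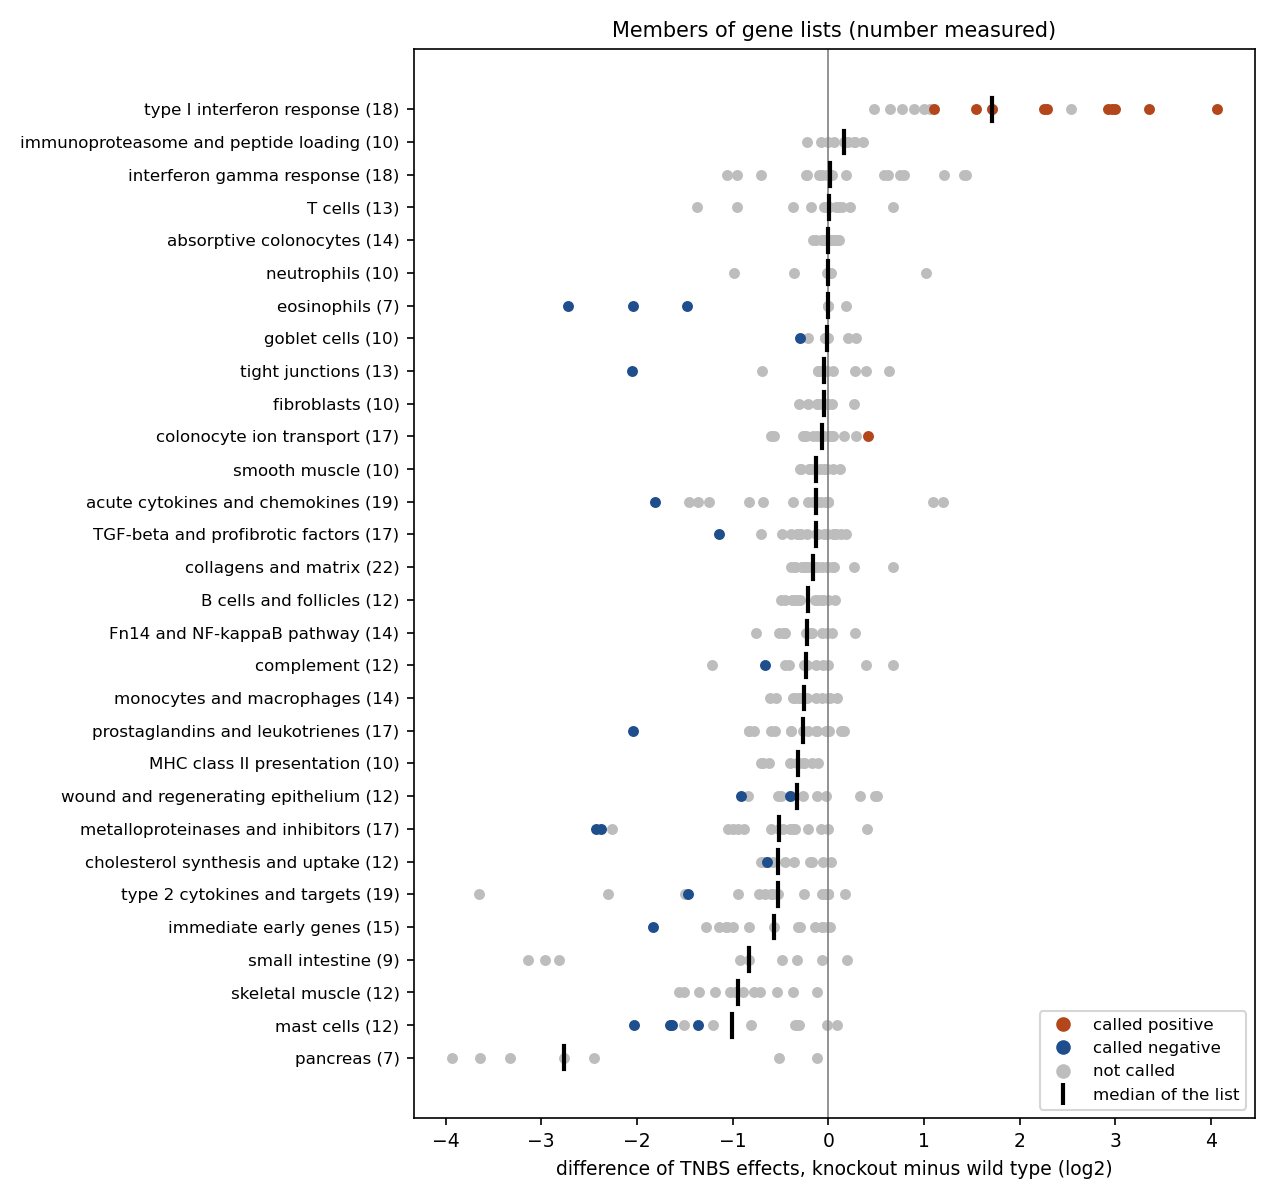
Difference of TNBS effects (log2, horizontal axis) of each measured member (points) of 30 gene lists, with the list median (black bar) and the number measured in parentheses. The type I interferon list lies above zero with 10 called members, and the mast cell list mostly below it with 4, while the pancreas list has the lowest median without a call.

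Another pattern was a high level in the untreated knockout that wild type showed only on TNBS-treated arrays. These arrays are separate samples from the untreated ones, and whether the groups differed in anything besides TNBS was not tested. S100g, the calcium-binding protein calbindin-D9k of the calcium-absorbing epithelium, had 7.14, 8.68, 9.48, 7.87 and 7.80 in untreated wild type and 12.63, 12.52, 12.42, 12.63 and 12.19 in the untreated knockout. With TNBS it stood at 11.19 to 12.14 (median 11.81) in wild type and 11.95 to 12.69 (median 12.18) in the knockout. The 5 untreated wild-type arrays lay below all others. The difference was -3.83 ± 0.40 (limma adjusted p = 8e-05), a 14.2-fold difference between the fold changes, from a rise of 3.58 ± 0.29 in wild type and -0.25 ± 0.28 in the knockout.

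Ctps2, a CTP synthase, had the smallest p of all genes (adjusted p = 5.3e-14). It was 5.87, 5.87, 5.97, 6.09 and 6.26 in untreated wild type and 9.31, 9.39, 9.18, 9.02 and 9.25 in the untreated knockout, and 9.11 to 9.42 (median 9.30) and 9.14 to 9.35 (median 9.23) with TNBS. The untreated wild-type arrays again stood alone, more than 2 log2 units below the rest. The difference was -3.28 ± 0.10, and further, faint probe sets gave -0.76 and -0.58. Ctps2 and S100g are neighbours in the GRCm38.p6 gene order. Of the 6 nearest measured genes on each side of Ctps2, S100g and Txlng were called. Txlng differed by -1.16 ± 0.13 (adjusted p = 0.00012), with TNBS-treated wild type at 8.13 to 8.59 and all other arrays at 7.18 to 7.74, but a further probe set gave 0.12. Syap1, between Txlng and Ctps2, differed by 0.08 ± 0.09 (adjusted p = 0.76), and Grpr, beyond S100g, by -0.61 ± 0.20 (0.11).

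Cldn4, a claudin of tight junctions, had 4.25, 3.98, 3.01, 4.01 and 3.07 in untreated wild type against 5.46, 4.79, 5.47, 6.26 and 5.19 in the untreated knockout, and 4.77 to 6.35 (median 4.99) and 4.40 to 6.13 (median 4.83) with TNBS. Untreated wild type lay below the other groups without overlap. The difference was -2.05 ± 0.48 (adjusted p = 0.029), the one call among 13 tight junction genes. It was lost without untreated wild-type array 3 or 5, TNBS-treated wild-type array 4 or untreated knockout array 4 (adjusted p up to 0.064), and with array weights, the skeletal muscle mean as a covariate or the 3 arrays with high pancreas genes left out. With values below log2 5 set to 5 it was -0.63 and did not pass. Hbegf, an EGF receptor ligand, differed by -0.91 ± 0.22 (0.034), and 6 of the 23 fits without 1 array ended its call. Haghl (-1.28 ± 0.26, adjusted p = 0.016) and the cell cycle factor E2f7 (-1.43 ± 0.34, 0.033) were also higher in the untreated knockout, each by 1.01, and 8 fits without 1 array ended the E2f7 call.

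**Figure D5:**
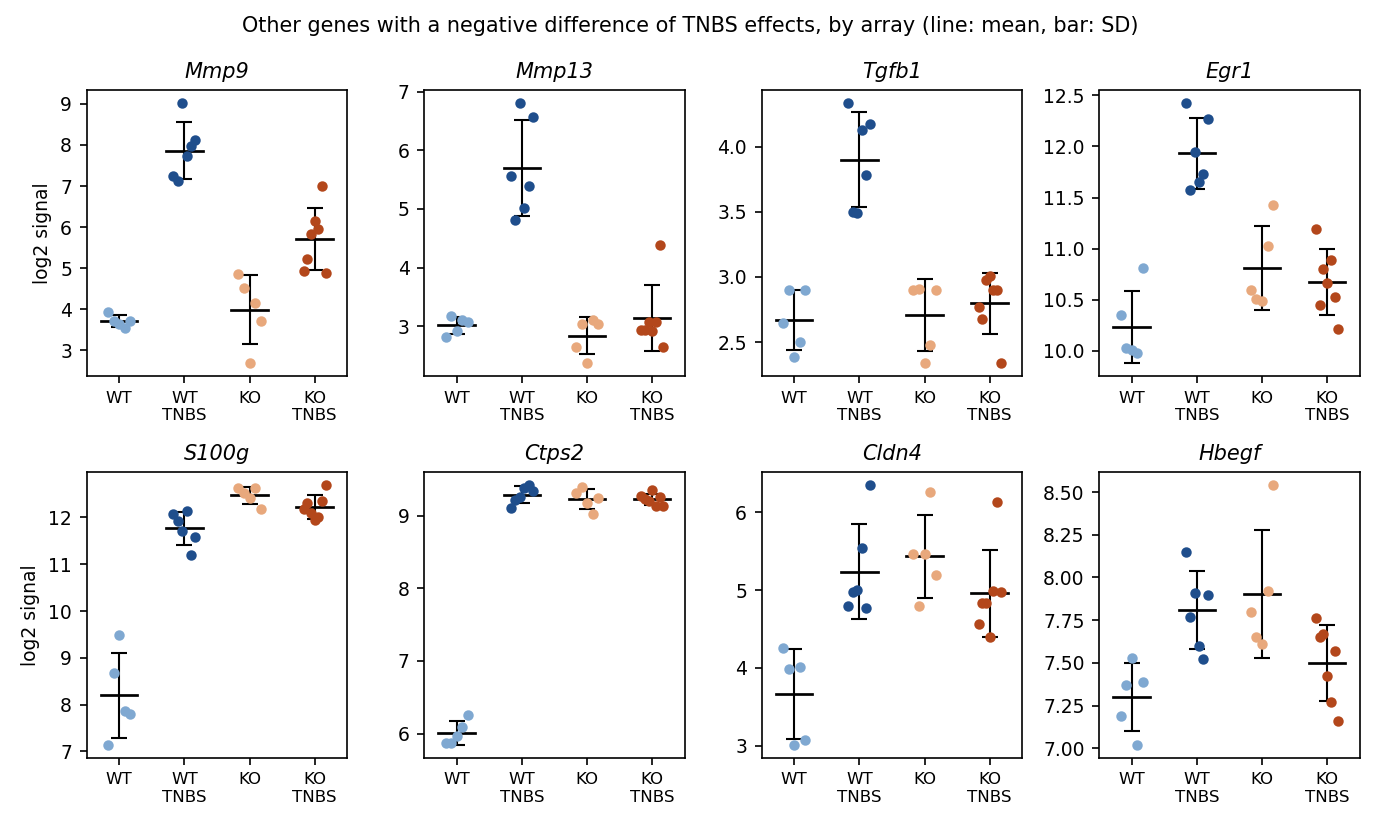
Log2 signal of 8 further genes with a negative difference of TNBS effects on each array (points), by group, with the group mean (line) and SD (bar). In the upper row TNBS-treated wild type is the highest group, and in the lower row untreated wild type is the lowest.

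In a few called genes TNBS effects were called in both genotypes and ran in opposite directions. There were 17 such genes, 6 positive and 11 negative. Ddx52, an RNA helicase, had 7.85, 7.99, 7.94, 7.98 and 7.81 in untreated wild type and 8.12 to 8.39 (median 8.18) with TNBS, and 8.16, 8.26, 8.12, 8.19 and 8.05 in the untreated knockout and 7.66 to 8.02 (median 7.80) with TNBS. Neither pair of treated and untreated groups overlapped. It rose by 0.29 ± 0.07 in wild type and fell by 0.33 ± 0.06 in the knockout (difference -0.62 ± 0.09, limma adjusted p = 0.0019).

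Pde5a, the cGMP phosphodiesterase of smooth muscle, ran the other way, with a fall of 0.36 ± 0.08 in wild type and a rise of 0.28 ± 0.08 in the knockout (difference 0.64 ± 0.11, adjusted p = 0.007). Its arrays stood at 11.88, 11.75, 11.78, 11.63 and 11.60 in untreated and 11.18 to 11.51 in TNBS-treated wild type, and at 11.61, 11.67, 11.53, 11.75 and 11.65 in the untreated and 11.65 to 12.15 in the TNBS-treated knockout. The wild-type groups did not overlap and the knockout groups did. The drug exporter gene Abcc1 differed by -0.57 ± 0.09 (0.0037), the helicase gene Blm by -0.71 ± 0.13 (0.01), the chromatin remodeller gene Chd1 by 0.72 ± 0.13 (0.0079) and the antiviral zinc finger gene Zc3hav1 by 0.48 ± 0.09 (0.01). The mean of all probe sets of the gene ended the calls of Pde5a, Chd1 and Zc3hav1, at 0.18 for Pde5a. Further probe sets of Chd1 gave -0.52, -0.14 and 0.11, so its direction differs between probe sets. Blm lies at 3.47 to 4.51 on all arrays, and no difference remained with values below log2 5 set to 5.

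Among the genes with the smallest p, some differed by little. Acot9, a mitochondrial acyl-CoA thioesterase, differed by -0.72 ± 0.08 (adjusted p = 0.00012), Washc5, of the WASH complex on endosomes, by -0.40 ± 0.06 (0.0018), and Zfp622 by 0.29 ± 0.04 (0.0018). Tlr6, a receptor for bacterial lipopeptides, differed by -0.53 ± 0.07 (0.0015). Its TNBS-treated wild-type arrays stood at 4.72 to 5.04 and all other arrays at 4.06 to 4.36, without overlap but near the dim end of the scale.

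Many genes have more than 1 probe set. For 235 of the 363 called genes, 430 further probe sets were measured. Of these, 262 had the sign of the chosen one and 30 were called over all probe sets. Among the 217 with a mean above log2 5, 165 had the same sign and 24 were called, so a call often rests on 1 probe set.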

How the data were processed

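The authors deposited log2 expression values of 45101 probe sets on 23 Affymetrix arrays. Per the submitters' processing notes, RMA and GCRMA were used; the sources used here do not give their versions or which of them made these values. The deposited values ran from 2.17 to 15.98, with 27.9% at the lowest value, and were used as given. A gene was read from the probe set that names it alone and has the highest mean over all arrays, which left 18194 genes; 932 probe sets naming several genes and 9211 without a name were left out.

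Group means were fitted with limma 3.58.1 in R 4.3.3 (lmFit, eBayes) over all 4 groups, with 19 residual degrees of freedom. P-values were adjusted by Benjamini-Hochberg over all genes for each contrast, and the threshold was 0.05. Figures were drawn in Python 3.11.15. The number of arrays limits the precision, and the scripts were tested on simulated data. The members and gene lists were chosen with earlier results of these data known. Named genes were selected from the deleted gene, the 15 largest called differences per direction, the 10 smallest p-values, and up to 6 called genes per direction with opposite called TNBS effects or the largest called genotype difference without or with TNBS. Up to 4 members of each list with the smallest p were added. Further list members, the heat shock set, the interferon source set and the neighbours of Ctps2 were picked after values were seen. Alternatives covered normalization, dim genes, probe set choice, tissue covariates and single arrays. Promoters came from RefSeq (GRCm38.p6), for 14453 of the measured genes.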

Additional observations from a re-analysis of the deposited data

Results flagged for a closer look

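The TNBS effects of the genotypes differed by test in 363 genes, described above. Single arrays were also examined: in each of 119 groups of 5 to 7 values, the farthest array was set against its nearest neighbour and the range of its group. An array stood far from the others in 13 groups (10.9%). The cut-offs flag about 1 in 20 groups of independent, normally distributed values. Some groups here hold values at the floor and the genes share arrays, so 10.9% cannot be read as an excess over chance.

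TNBS-treated knockout array 6 did so in 3 genes, each time as the highest: Mmp13 at 4.39 (next 3.07), Cldn4 at 6.13 (next 4.99) and Ccl24 at 2.86 (next 2.37). TNBS-treated wild-type array 6, which has high pancreas genes, was the lowest for 2 interferon-stimulated genes, Oasl2 at 9.12 (next 10.01) and Ifit1 at 9.69 (next 10.61). TNBS-treated wild-type array 4 was high for Ddx52 at 8.39 (next 8.22), and TNBS-treated knockout array 5 low for Tnfrsf12a at 3.84 (next 4.03).

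The other 6 lay near the lowest value of the series or differed by under 0.5: Fcer1a at 2.17 on untreated wild-type array 5 and 2.35 on untreated knockout array 2, Ms4a2 at 2.36 on untreated wild-type array 3, Alox15 at 2.60 on untreated knockout array 3, Ccl7 at 2.77 on untreated knockout array 1 and Tlr6 at 4.18 on untreated wild-type array 4.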

How the results depend on the processing

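The 363 calls (113 positive, 250 negative) became 172 (53 and 119) with the replicate number as a block, 193 (56 and 137) when a difference of at least 0.5 was required, and 202 (60 and 142) without the 3 arrays with high pancreas genes, an alternative chosen after seeing the data. With dim genes left out 171 positive genes were called. Leaving out single arrays gave 213 to 443 calls, 62 to 137 positive and 151 to 311 negative, fewest without untreated knockout array 4. Without untreated wild-type array 1 there were 238 and without TNBS-treated knockout array 7 242. Array centring moved the median of all genes by 0.035. Mcpt1 alone among the named genes changed its sign as a called value, to -0.97 with values below log2 5 set to 5. That setting made all untreated Mcpt1 values equal, so only the difference between the TNBS-treated genotypes was left.

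The labels do not say whether the replicate numbers pair the samples. Over 31 same-numbered pairs the correlation of deviations ran from -0.46 to 0.43 with a median of 0.03, and 10 exceeded 0.1. Pairs with different numbers were not examined beside them, so these values cannot decide whether samples were paired.

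Counts of the simple comparisons also moved. The 2998 calls for TNBS in wild type became 1350 with the squamous mean as a covariate and 1982 without the 3 arrays with high pancreas genes. The 1556 in the knockout became 560 with the squamous mean, 429 with the small-intestinal mean, 813 with the Gapdh signal and 1014 without untreated knockout array 3. The 879 between untreated genotypes became 89 with the skeletal muscle mean, 458 without untreated wild-type array 1 and 484 without untreated knockout array 4. The 1902 between TNBS-treated genotypes became 1230 with the block, 738 with the Gapdh signal and 1173 without the 3 arrays. Signal over background limits the faint genes. With values below log2 5 set to 5 the calls of Oas2, Ifi44l, Ms4a2, Alox15, Siglecf, Ccl24, Cd209e, Pdcd1lg2, Tmem26, Mmp13, Tgfb1, Ccl7, Cldn4, Tlr6 and Blm ended, as did those of Krt7 and Fcgbp at the threshold.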
